A study of Homo sapiens with 36 samples.

Results

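*VEGFA*, *ANGPTL4*, *STC2*, *ADM*, *NDRG1*, *CA9* and *DDIT4* are 7 protein-coding genes known to be induced by low oxygen or by cellular stress. They were picked by symbol, and each matched 1 row of the count table, so that 7 of its 60675 genes are described here across all 12 groups. The question of the study was how a herbal extract acts on a cell line of brain origin and on one of intestinal origin. SW1783 is an astrocytoma cell line and HT29 is a colorectal adenocarcinoma cell line. For each line, batch B held a vehicle group and groups exposed to ACD, an extract made in hot water from the monkshood *Aconitum carmichaeli* Debeaux, a herbal medicine, at 20 µg/mL (low), 100 µg/mL (medium) or 500 µg/mL (high), while batch A held its own vehicle and cells exposed to wortmannin, which blocks the kinase PI3K, at 10 µM. The vehicle was labelled 0.1% DMSO. The series design names 2% DMSO, which in the paper's methods is the solution before it was added to the medium. Exposure lasted 24 h, and each group had 3 replicates. The labels do not say that these came from separate cultures, so the p-values measure the spread between these samples, which may be technical.

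When oxygen is short, prolyl hydroxylases of the EGLN family no longer mark the α subunits of hypoxia-inducible factor (HIF) for destruction by VHL, and HIF then switches on genes for blood vessel growth, glycolysis and pH control. A second route, the integrated stress response, raises the transcription factor ATF4 when amino acids run short or unfolded protein accumulates in the endoplasmic reticulum, and its targets include amino acid synthesis enzymes and the factors CHOP (*DDIT3*) and ATF3. Of the 7 genes, *CA9* is known chiefly as a HIF target, whereas *VEGFA*, *DDIT4*, *STC2* and *NDRG1* are known to respond to both oxygen shortage and other stresses, and *ANGPTL4* also to the fatty acid receptors PPAR and to glucocorticoids.

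The promoters of 4 genes that changed with the high dose in SW1783 are shown here, since both routes act at promoter elements. Each is the RefSeq window (GRCh38.p14) from 250 bases before to 50 bases after the start site, read 5′ to 3′ on the strand of the gene, and capitals mark the HIF core motifs ACGTG and GCGTG on either strand (CACGT and CACGC on the reverse). *STC2* lies on the minus strand and the others on the plus strand.
STC2 (chr5:173328365-173328664): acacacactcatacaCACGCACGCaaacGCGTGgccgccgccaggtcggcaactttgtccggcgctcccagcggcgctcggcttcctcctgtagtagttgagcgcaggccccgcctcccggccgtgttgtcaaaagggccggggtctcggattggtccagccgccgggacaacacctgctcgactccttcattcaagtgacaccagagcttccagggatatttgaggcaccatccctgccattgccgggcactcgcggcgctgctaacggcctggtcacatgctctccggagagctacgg
ADM (chr11:10304823-10305122): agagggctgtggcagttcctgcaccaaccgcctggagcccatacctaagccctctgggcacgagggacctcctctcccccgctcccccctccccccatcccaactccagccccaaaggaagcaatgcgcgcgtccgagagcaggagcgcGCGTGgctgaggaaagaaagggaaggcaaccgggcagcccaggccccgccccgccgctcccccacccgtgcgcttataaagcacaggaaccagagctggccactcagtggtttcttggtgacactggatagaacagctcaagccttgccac
DDIT4 (chr10:72273674-72273973): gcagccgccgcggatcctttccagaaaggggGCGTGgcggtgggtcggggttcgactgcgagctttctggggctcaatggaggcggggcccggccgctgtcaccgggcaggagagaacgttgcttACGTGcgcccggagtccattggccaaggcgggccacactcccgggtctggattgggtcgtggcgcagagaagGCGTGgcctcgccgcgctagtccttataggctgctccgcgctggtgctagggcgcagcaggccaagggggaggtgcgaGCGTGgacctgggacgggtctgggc
CA9 (chr9:35673678-35673977): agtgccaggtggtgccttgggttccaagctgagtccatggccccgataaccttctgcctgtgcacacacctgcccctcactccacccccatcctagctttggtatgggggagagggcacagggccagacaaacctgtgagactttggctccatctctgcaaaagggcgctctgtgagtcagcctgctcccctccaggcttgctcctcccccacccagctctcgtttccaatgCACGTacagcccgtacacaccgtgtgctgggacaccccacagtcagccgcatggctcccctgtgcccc
*DDIT4* held ACGTG at −125 and GCGTG at −219, −53 and 26, where a position is the first base of the match counted from the start site. *CA9* held ACGTG at −18 on the reverse strand, *ADM* held GCGTG at −101, and *STC2* held GCGTG at −235, −231 and −222, the first pair overlapping by 1 base on the reverse strand. *ANGPTL4*, not printed, held ACGTG at −234. Such short motifs are common: ACGTG was present in 21.4% and GCGTG in 36.5% of all 35116 windows. The ATF4 composite motif TGATGNAA, found in 3.6% of all windows, matched in none of the 5 windows examined. It matched in 6 of the 21 windows found for a list of 24 ATF4 and CHOP target genes. In that list ACGTG was present in 2 of 21 windows, against 14 of 25 for HIF targets outside glycolysis and 8 of 21 for glycolytic ones. GCGTG was present in 13, 15 and 11 of these windows, in the same order. These matches describe the letters only, and *VEGFA* and *NDRG1* were not looked at.

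Depth was 18863852 to 26436841 counts per SW1783 library and 15941250 to 33866636 per HT29 library, so that 3 counts, taken as the floor, equal 0.089 to 0.188 CPM, which scales counts to the library total. The line labels were checked against markers: SW1783 had 4080 to 4970 CPM of the mesenchymal gene *VIM* but at most 0.261 CPM of *GFAP* and 0.253 CPM of *S100B*, the defining astrocyte genes. HT29 had at least 452 CPM of the epithelial *EPCAM* and 233 CPM of *KRT20*. Its intestinal transcription factors were low, with 0.51 to 1.59 CPM of *CDX1* and 4.8 to 7.32 CPM of *CDX2*. The sum of the proliferation genes *MKI67* and *TOP2A* was 728 to 766 CPM in SW1783 vehicle and 320 to 338 CPM at the high dose (HT29: 997 to 1220 and 689 to 1160 CPM). The mitochondrial rRNA share was 0.932% ± 0.025 (SD, n = 3) in SW1783 vehicle, and low, medium and high doses gave 3.14% ± 0.16, 7.83% ± 0.2 and 5.93% ± 0.15. In HT29 it was 1.18% ± 0.04, 1.09% ± 0.09, 2.1% ± 0.12 and 12% ± 0.63 in the same order. The share was thus higher than in vehicle in every ACD group but low-dose HT29, and its part in the results was not tested. High-dose HT29 replicate 2 stood apart from the other libraries of its group (chi-square per degree of freedom up to 71.49 within a group), and both HT29 DEGs at that dose kept their calls without it. Levels below are normalized counts (counts divided by a size factor that puts all 36 libraries on 1 scale), values of replicates 1, 2 and 3 are in that order, and fewer cells of a type and less RNA per cell cannot be told apart. A gene is said to have risen or fallen where its adjusted p was under 0.05 (DESeq2 Wald test, two-sided, adjusted over all genes of the comparison), and is called a DEG (differentially expressed gene) where it also changed more than 1.5-fold.

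At the high dose, 6 of the 7 genes were DEGs in SW1783, with 5 higher and *CA9* lower, against 18.2% of all genes tested. In HT29, 2 of the 5 genes that could be tested were DEGs, *VEGFA* and *DDIT4*, against 2.92% of all genes. At the medium dose only *DDIT4* in SW1783 was a DEG (1 of 7, against 3.81%) and none of 5 in HT29 (against 0.827%). At the low dose none was a DEG in either line (against 0.118% in SW1783 and 0.315% in HT29), and none passed an adjusted p under 0.05 (against 3.29% and 0.617%). By that p alone, without the fold limit, 6 of 7 passed at the high dose in SW1783 (against 46.5% of all genes), 5 of 7 at the medium dose (against 29.5%) and 2 of 5 at the high dose in HT29 (against 7.62%).

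**Figure D1:**
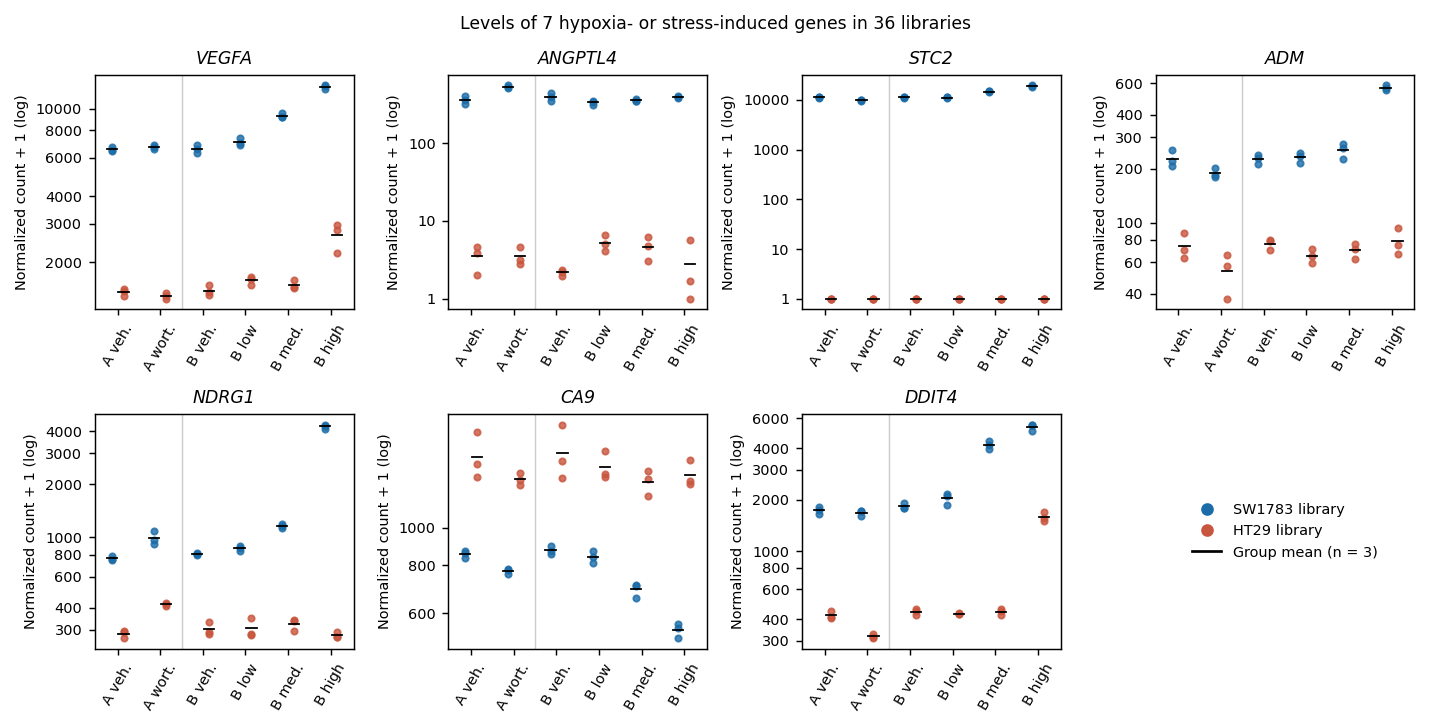
Levels of the 7 genes in each library. The y axis is the normalized count plus 1 on a log scale, the x axis the group (A and B are the batches, veh. the vehicle, wort. wortmannin), points are libraries and black lines the means of 3 replicates. In SW1783, *NDRG1* stood at 4114 to 4375 at the high dose and at no more than 1199 in every other group, whereas *CA9* fell to 516 to 562.

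*VEGFA* (ENSG00000112715, chr6:43770184-43786487, plus strand) encodes the secreted growth factor that drives the growth and leakiness of blood vessels. In SW1783 it stood at 6298, 6580 and 6824 in vehicle, 6823, 6996 and 7368 at the low dose, 9140, 9153 and 9597 at the medium dose, and 12830, 12330 and 12750 at the high dose. The medium and high groups did not overlap each other or the vehicle, while 1 low-dose library lay within the vehicle range. At the high dose it rose 1.96-fold (log2 fold change 0.97 ± 0.03 SE, adjusted p = 5.92e-176). The rise was 1.42-fold at the medium dose (log2 fold change 0.51 ± 0.03, adjusted p = 3.9e-47), and the low-dose value was 0.11 ± 0.04 (adjusted p = 0.0588). In HT29, with less *VEGFA* throughout, vehicle libraries held 1410, 1578 and 1462, the low dose 1568, 1709 and 1670, the medium dose 1653, 1522 and 1547, and the high dose 2944, 2197 and 2797. There the high-dose libraries lay above all others, with replicate 2 the lowest of them, and the vehicle, low and medium groups overlapped. The high-dose rise was 1.77-fold (0.82 ± 0.10, adjusted p = 6.16e-13), against 0.07 ± 0.10 at the medium dose (adjusted p = 0.90). Without high-dose replicate 2 the high-dose value was 0.93 (adjusted p = 3.63e-37).

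*ADM* (ENSG00000148926, chr11:10305073-10307397, plus strand) encodes adrenomedullin, a peptide hormone that widens blood vessels. SW1783 vehicle libraries held 236.9, 230 and 212.2, the low dose 233.2, 245.3 and 215.3, the medium dose 226.9, 275 and 259.4, and the high dose 562.4, 585.4 and 551. Only the high-dose libraries stood clear of the rest. The gene rose 2.54-fold there (log2 fold change 1.35 ± 0.11, adjusted p = 4.71e-35), while the medium dose gave 0.17 ± 0.12 (adjusted p = 0.265). HT29 held 69.04 to 78.38 in vehicle and 65.65 to 92.51 at the high dose, with a log2 fold change of 0.05 ± 0.20 (adjusted p = 0.948) and overlapping groups.

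*STC2* (ENSG00000113739, chr5:173314723-173328447, minus strand) encodes stanniocalcin 2, a secreted glycoprotein known to be made under endoplasmic reticulum stress. In SW1783 it stood at 11640, 11050 and 11580 in vehicle, 11280, 11200 and 10810 at the low dose, 14770, 14740 and 14080 at the medium dose, and 19710, 18750 and 18310 at the high dose. The medium and high groups lay above the vehicle and apart from each other. It rose 1.69-fold at the high dose (log2 fold change 0.75 ± 0.03, adjusted p = 8.28e-127) and 1.28-fold at the medium dose (0.35 ± 0.03, adjusted p = 1.79e-27). In HT29 its count was 0 in all 18 libraries. Set against the floor of 3 counts per library, at most 4.74 normalized counts, the SW1783 vehicle mean of 11420 ± 325 (SD, n = 3) was at least 2410-fold higher.

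*ANGPTL4* (ENSG00000167772, chr19:8363289-8374370, plus strand) encodes a secreted inhibitor of lipoprotein lipase. SW1783 held 391.8, 346.9 and 439.3 in vehicle, 349.9, 336.8 and 311.5 at the low dose, 370.5, 350.4 and 350.9 at the medium dose, and 407.4, 387.7 and 378.1 at the high dose. The 3 doses each overlapped the vehicle. At the high dose the log2 fold change was 0.02 with a 95% interval of −0.18 to 0.22 (adjusted p = 0.899), an interval inside the 1.5-fold limit. In HT29 each library held 0 to 7 counts, too few for a test, and no fold is given.

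*DDIT4* (ENSG00000168209, chr10:72273919-72276036, plus strand) encodes REDD1, which restrains the growth kinase complex mTORC1. It was the gene with DEG calls in the most ACD comparisons. SW1783 held 1794, 1798 and 1906 in vehicle, 2099, 2161 and 1870 at the low dose, 4201, 4435 and 3945 at the medium dose, and 5510, 5485 and 5030 at the high dose. The low-dose group overlapped the vehicle, and the medium and high groups lay above it. The rise was 2.97-fold at the high dose (log2 fold change 1.57 ± 0.05, adjusted p = 6.12e-181) and 2.3-fold at the medium dose (1.20 ± 0.06, adjusted p = 5.73e-104). HT29 held 455.6, 423.9 and 444.8 in vehicle, 426.9, 431.3 and 433.2 at the low dose, 448.7, 424.6 and 455.7 at the medium dose, and 1504, 1701 and 1561 at the high dose. In that line the high dose alone stood apart. The rise there was 3.56-fold (1.83 ± 0.08, adjusted p = 6.01e-112), beside −0.01 ± 0.09 at the medium dose (adjusted p = 0.99), and was 1.78 without high-dose replicate 2 (adjusted p = 1.48e-101).

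*NDRG1* (ENSG00000104419, chr8:133237175-133302022, minus strand) encodes an intracellular protein linked to differentiation and the restraint of metastasis, and is a well known substrate of the kinase SGK1. SW1783 held 816.2, 801 and 795.4 in vehicle, 874.1, 833 and 894.5 at the low dose, 1131, 1154 and 1199 at the medium dose, and 4114, 4316 and 4375 at the high dose. No pair of these groups overlapped. The rise was 5.4-fold at the high dose (log2 fold change 2.43 ± 0.05, with an adjusted p below the smallest number the software prints), the largest change among the 7 genes, and 1.45-fold at the medium dose (0.54 ± 0.06, adjusted p = 4.39e-20). The low dose gave 0.11 ± 0.06 (adjusted p = 0.367). HT29 held 329.4, 289.6 and 282.1 in vehicle and 289.3, 270.3 and 271.9 at the high dose, overlapping, with a log2 fold change of −0.13 ± 0.13 (adjusted p = 0.678). *NDRG1* overlaps the gene model ENSG00000289316 on its own strand, and how reads were shared between them is uncertain.

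*CA9* (ENSG00000107159, chr9:35673928-35681159, plus strand) encodes carbonic anhydrase 9, a membrane enzyme that acidifies the surroundings of the cell, and was the only one of the 7 that fell with ACD. SW1783 held 855.5, 895 and 871.8 in vehicle, 837.3, 869.8 and 807.5 at the low dose, 655.4, 710.9 and 705 at the medium dose, and 562.4, 549.5 and 515.8 at the high dose. The medium and high groups lay below the vehicle and apart from each other. The gene was 1.59-fold lower at the high dose (log2 fold change −0.67 ± 0.07, adjusted p = 2.04e-19) and 1.26-fold lower at the medium dose (−0.33 ± 0.07, adjusted p = 2.06e-05). In HT29, where its level was above that of SW1783 in every group, vehicle libraries ranged from 1349 to 1855 and high-dose libraries from 1302 to 1497, with a log2 fold change of −0.20 ± 0.13 (adjusted p = 0.426). *CA9* overlaps *ARHGEF39* on the opposite strand, as *VEGFA* does ENSG00000272114. The libraries were directional, but whether counting used the strand is not given in the sources used here.

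The step from the medium to the high dose was tested directly in the same libraries. In SW1783, *NDRG1* rose a further 3.72-fold (1.90 ± 0.05, with an adjusted p below the smallest number printed) and *ADM* 2.25-fold (1.17 ± 0.11, adjusted p = 3.43e-27), and these were the 2 DEGs among the 7 genes, against 10.2% of all genes (6 of 7 passed the adjusted p, against 40.9%). *VEGFA*, *STC2* and *DDIT4* rose by smaller steps of 0.46 ± 0.03, 0.40 ± 0.03 and 0.37 ± 0.05 (log2), and *CA9* fell by a further 0.33 ± 0.07. The order of the SW1783 groups thus followed the dose for *VEGFA*, *STC2*, *NDRG1*, *DDIT4* and *CA9* from the medium dose upward, with low dose and vehicle not told apart by the test. In HT29 the 2 DEGs were *DDIT4* (1.84 ± 0.08) and *VEGFA* (0.75 ± 0.10), against 0.7% of all genes.

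The difference between the lines was tested as an interaction term over the 24 libraries of batch B. The fold change of *NDRG1* at the high dose was 5.71 times that in HT29 (log2 difference 2.51 ± 0.11, adjusted p = 4.7e-114). For *ADM* it was 2.36 times (1.24 ± 0.19, adjusted p = 3.85e-10), and neither gene rose in HT29 by the test. These were 2 DEGs among the 5 genes with enough counts in HT29, against 14.6% of all genes. Of the same 5, 4 passed the adjusted p, against 27.7%. *CA9* changed more in SW1783 (log2 difference −0.50 ± 0.14, adjusted p = 2.32e-03) and *DDIT4* rose less there than in HT29 (−0.31 ± 0.10, adjusted p = 7.57e-03), both by less than 1.5-fold. For *VEGFA* the difference was 0.11 with a 95% interval of −0.11 to 0.32 (adjusted p = 0.541), so that its relative rise was not told apart between lines whose levels differ several-fold. *STC2* and *ANGPTL4* allow no such comparison, at or near 0 in HT29.

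**Figure D2:**
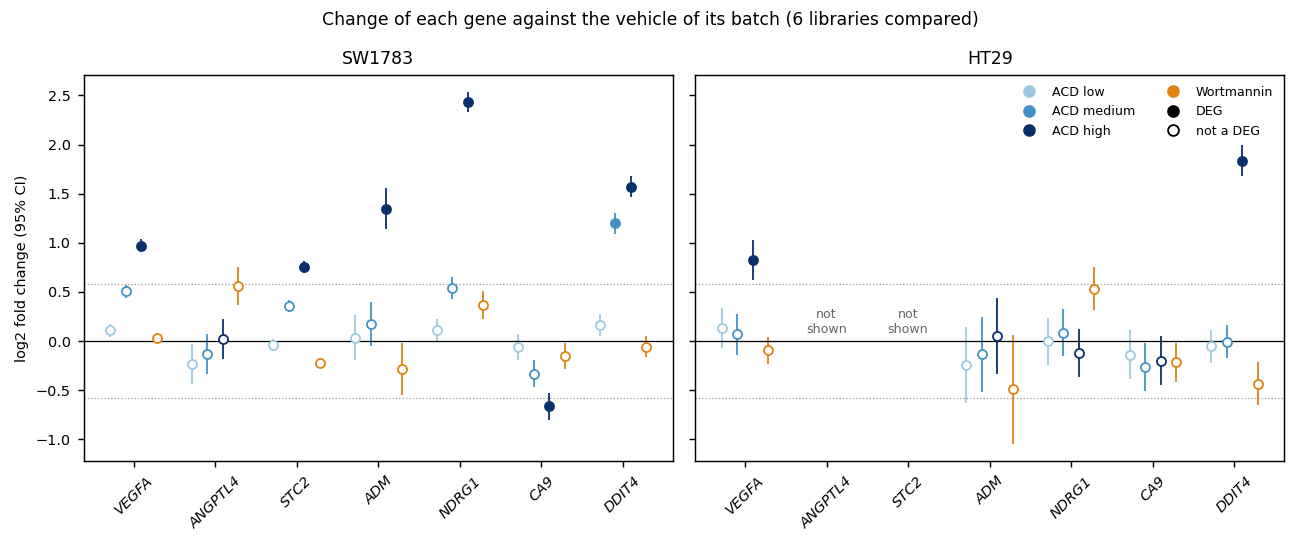
Log2 fold change of each gene against the vehicle of its own batch, with bars for the 95% confidence interval. Filled points are DEGs, dotted lines mark 1.5-fold, and *STC2* and *ANGPTL4* are not shown for HT29, where counts were 0 to 7. High-dose points reach 2.43 for *NDRG1* in SW1783 and 1.83 for *DDIT4* in HT29.

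Wortmannin made none of the 7 genes a DEG in SW1783 (against 2.72% of all genes) and none of 5 in HT29 (against 2.65%). By adjusted p alone, 3 of 7 passed in SW1783 (against 33.9% of all genes) and 2 of 5 in HT29 (against 18.7%). Below the 1.5-fold limit, *NDRG1* rose in both lines. It went from 745.2, 788 and 756.7 in the vehicle of batch A to 922.8, 963.2 and 1091 in SW1783 (0.37 ± 0.07, adjusted p = 4.15e-06), and from 288.1, 267.3 and 292 to 406.9, 415.4 and 425.3 in HT29 (0.53 ± 0.11, adjusted p = 4.71e-05). Neither pair of groups overlapped. *ANGPTL4* rose in SW1783 from 361.6, 313.6 and 402.8 to 515.3, 553.7 and 523 (0.56 ± 0.10, adjusted p = 2.2e-07), the comparison in which it came closest to the fold limit, and it passed the limit without vehicle replicate 3 (0.65). *STC2* fell slightly in SW1783, from 11660, 10950 and 11520 to 9994, 9817 and 9706 (−0.22 ± 0.03, adjusted p = 4.19e-16). *DDIT4* fell in HT29 from 449.3, 407.1 and 411.8 to 309.6, 326.9 and 315.9 (−0.44 ± 0.11, adjusted p = 1.28e-03), against −0.06 ± 0.05 in SW1783 (adjusted p = 0.457). The difference between the lines passed the test for *DDIT4* only (0.35 ± 0.10, adjusted p = 6.61e-03), and it too was under 1.5-fold. Thus none of the 5 genes with enough counts in HT29 was a DEG (against 3.36% of all genes), and 1 of 5 passed the adjusted p (against 14.9%). *VEGFA* stood at 6448 to 6687 in vehicle and 6588 to 6816 with wortmannin in SW1783 (0.03 ± 0.03, adjusted p = 0.479), and at 1408 to 1512 and 1360 to 1444 in HT29 (−0.10 ± 0.07, adjusted p = 0.366), with overlapping groups in both.

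Other genes of the same pathways were followed as lists, each given by its counts and its median beside the median over all genes tested, which was −0.01 in SW1783 and 0.01 in HT29 at the high dose. The known targets of ATF4 and CHOP rose for the most part in both lines. In SW1783, 21 of 23 tested were DEGs upward and none downward, against 18.2% of all genes, with a median log2 fold change of 1.86. There *ATF5* fell by 0.42 ± 0.08, under the fold limit, and is named after its values were seen. In HT29 18 of 23 rose as DEGs and none fell, against 2.92% of all genes, with a median of 0.90. Among these targets, the stress cytokine *GDF15* rose by 6.81 ± 0.10, the transcription factor *ATF3* by 4.73 ± 0.17 (adjusted p = 8.4e-179) and the pseudokinase *TRIB3* by 4.31 ± 0.06 in SW1783 (*GDF15* and *TRIB3* with an adjusted p below the smallest number printed). Among those with a mean of 100 or more normalized counts, the largest rises in HT29 were those of *CHAC1* (2.99 ± 0.17, adjusted p = 9.4e-67), which degrades glutathione, asparagine synthetase *ASNS* (2.08 ± 0.14, adjusted p = 4.5e-50) and the serine synthesis enzyme *PSAT1* (1.45 ± 0.08, adjusted p = 7.1e-66). At the medium dose 21 of 23 were DEGs upward in SW1783 (median 1.26, against 3.81% of all genes) and 1 of 23 in HT29 (median 0.11, against 0.827%).

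The HIF target lists were mixed or lower in SW1783. Of 22 glycolytic HIF targets, 2 were DEGs upward and 6 downward, with a median of −0.38, against 18.2% of all genes in either direction. The DEGs that fell included lactate dehydrogenase *LDHA* (−0.98 ± 0.03), *PFKFB4*, which controls glycolytic flux (−1.002 ± 0.087, adjusted p = 1.9e-29), and glycogen synthase *GYS1* (−0.89 ± 0.05, adjusted p = 5.3e-62), while the glucose transporter *SLC2A3* (1.20 ± 0.06, adjusted p = 3.7e-91) and hexokinase *HK2* (1.17 ± 0.05, adjusted p = 1.9e-108) rose. Of 29 other HIF targets tested, 6 were DEGs upward and 4 downward, with a median of 0.06, against the same 18.2%. Among those with a mean of 100 or more normalized counts, the largest rises were those of heme oxygenase *HMOX1* (3.39 ± 0.05), also a target of the oxidant sensor NRF2, *MXI1* (1.14 ± 0.11) and *BHLHE40* (1.00 ± 0.03), and those that fell were *PPFIA4* (−1.95 ± 0.17), *FAM162A* (−0.84 ± 0.12), the mitophagy gene *BNIP3* (−0.64 ± 0.04) and *EGLN3* (−2.72 ± 0.24, adjusted p = 1.4e-27), the last at a mean of only 90 normalized counts and named after its values were seen. In HT29 none of 21 glycolytic targets was a DEG (8 rose and none fell at an adjusted p under 0.05, median 0.21), and among 27 other targets *VLDLR*, which is on the ATF4 list too (1.12 ± 0.17, adjusted p = 6.2e-09), and *HMOX1* (1.09 ± 0.13, adjusted p = 1.6e-15) were the 2 DEGs, with none lower. Of all genes in HT29, 2.92% were DEGs and 7.62% passed the adjusted p.

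**Figure D3:**
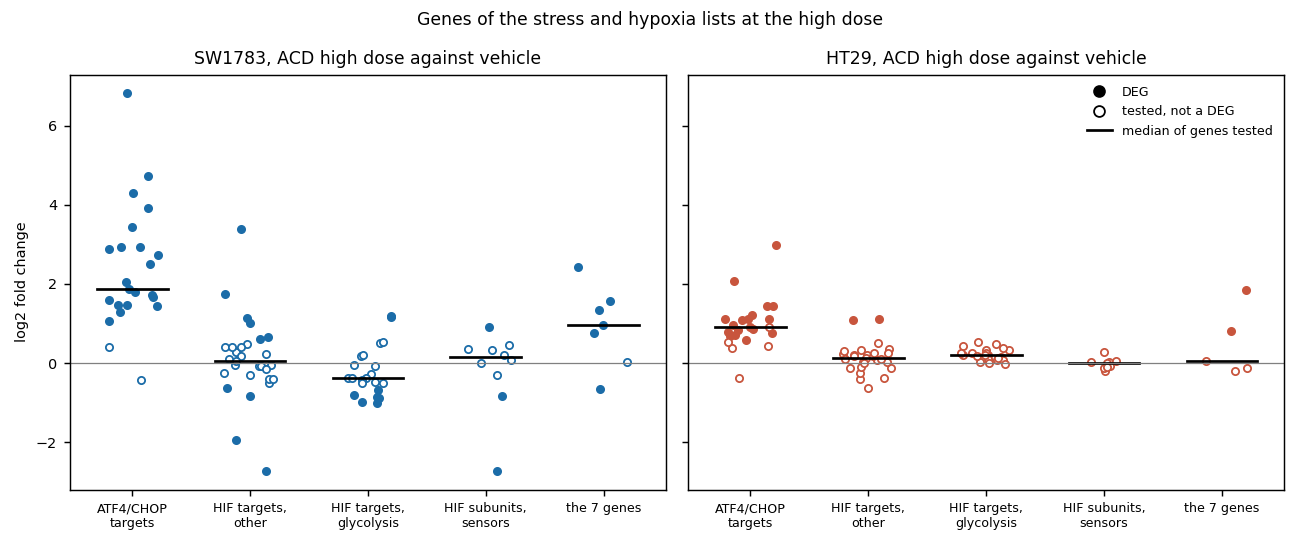
Log2 fold change at the high dose for each gene tested in 4 lists and for the 7 genes described here, with filled points for DEGs and black lines for medians. In SW1783 the median was 1.86 for the ATF4 and CHOP targets and −0.38 for the glycolytic HIF targets, and in HT29 0.90 and 0.21.

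Of 10 HIF subunits and oxygen sensors tested in SW1783, 1 was a DEG upward and 2 downward, with a median of 0.15, against 18.2% of all genes. The α subunits *HIF1A* (0.33 ± 0.03, adjusted p = 6.3e-35) and *EPAS1* (0.45 ± 0.03, adjusted p = 1.5e-52) rose by less than 1.5-fold, and their partner *ARNT* stood at 0.09 ± 0.06 (adjusted p = 0.24). The DEGs were the oxygen sensor *EGLN1* (−0.84 ± 0.06, adjusted p = 1.4e-44), *EGLN3*, itself a HIF target, and *CITED2*, a competitor of HIF for its coactivator (0.90 ± 0.06, adjusted p = 9.8e-56). In HT29 none of 9 was a DEG (median 0.00), against 2.92% of all genes. Only *HIF1A* passed the adjusted p there (0.27 ± 0.07, adjusted p = 0.0012), against 7.62% of all genes. Its HT29 mean was 2300 ± 184 (SD, n = 3) in vehicle. Low, medium and high doses gave 2836 ± 74.6, 2860 ± 58.6 and 2805 ± 81.6, so the difference did not grow with dose. Of 7 VEGF ligands and receptors tested in SW1783 (median −0.27), *VEGFB* rose in SW1783 (0.68 ± 0.06, adjusted p = 1.9e-27) and placental growth factor *PGF* fell (−1.38 ± 0.20, adjusted p = 7.4e-11, at a mean of 86 normalized counts). The co-receptor *NRP1* fell by 0.42 ± 0.02 and *NRP2* rose by 0.26 ± 0.03, and the receptor *KDR* stood at 0.15 ± 0.08 (adjusted p = 0.11). No member of that family was a DEG in HT29 among 4 tested (median −0.11).

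Paralogues of the 7 genes did not all follow them. *ADM2*, which encodes the related peptide intermedin, rose by 4.21 ± 0.16 in SW1783 (adjusted p = 2.3e-150) and by 2.53 ± 0.29 in HT29 (adjusted p = 3.6e-16), the line in which *ADM* was not a DEG. The receptor accessory gene *RAMP1* fell in both lines (−0.68 ± 0.12, adjusted p = 2.2e-08, and −1.06 ± 0.26, adjusted p = 0.0017), the HT29 value at a mean of 56 normalized counts. *STC1* fell in SW1783 by 0.43 ± 0.03 (adjusted p = 6.3e-38), where *STC2* rose. *NDRG3* (−0.41 ± 0.06) and *NDRG4* (−0.83 ± 0.17) fell while *NDRG1* rose, and the other tumour-associated carbonic anhydrase *CA12* stood at −0.04 ± 0.05 (adjusted p = 0.58) while *CA9* fell. *ANGPTL2* fell by 0.31 ± 0.07 with the high dose and rose by 0.89 ± 0.05 with wortmannin (adjusted p = 4.5e-62), a DEG. The whole list held 23 relatives and receptors. In SW1783, 1 of 18 tested was a DEG upward and 3 were DEGs downward (median −0.42), a share near the 18.2% of all genes. In HT29, 1 of 12 tested was a DEG upward and 2 were DEGs downward (median −0.04), against 2.92% of all genes.

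Regulators that share the function of 2 of the genes were also followed. Of 12 mTORC1 regulators, 3 were DEGs upward and 2 downward in SW1783 (median 0.06), and 1 of 11 upward and 2 downward in HT29 (median 0.01). The counts of this paragraph stand beside the 18.2% of all genes that were DEGs in SW1783 and 2.92% in HT29. The leucine sensor *SESN2*, itself on the ATF4 list, rose by 2.74 ± 0.07 in SW1783 and 1.11 ± 0.14 in HT29 (adjusted p = 1.3e-12), as *DDIT4* did, while *SESN3* fell in SW1783 (−0.89 ± 0.15, adjusted p = 1.8e-08) and *SESN1* in HT29 (−0.73 ± 0.12, adjusted p = 9.9e-08). *ANGPTL4* is a known PPAR and glucocorticoid receptor target. Of 12 PPAR targets tested in SW1783 (median −0.04), 1 was a DEG upward, the lipid droplet gene *PLIN2* (3.13 ± 0.04), and 3 were DEGs downward, among them *SLC25A20* (−0.69 ± 0.10, adjusted p = 2.4e-10). Of 8 glucocorticoid receptor targets (median 0.35), *DUSP1* (1.81 ± 0.06, adjusted p = 1.8e-173) and *ERRFI1* (0.83 ± 0.05, adjusted p = 1.1e-58) rose and *CRISPLD2* fell (−1.39 ± 0.06, adjusted p = 6.3e-128). In HT29 2 of 8 glucocorticoid receptor targets were DEGs, 1 in each direction (median 0.16).

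With wortmannin these lists gave few DEGs, and their counts by adjusted p stand beside the 33.9% of all genes that passed in SW1783 and 18.7% in HT29. Of the ATF4 and CHOP targets, none of 23 was a DEG in SW1783 (9 fell and 4 rose at an adjusted p under 0.05), and in HT29 1 of 22 was a DEG upward and 2 downward, *ASNS* (−0.76 ± 0.08, adjusted p = 2.1e-20) and *PHGDH* (−0.70 ± 0.10, adjusted p = 1.5e-09), with 10 lower at an adjusted p under 0.05. Of the glycolytic HIF targets, 16 of 22 fell in SW1783 at an adjusted p under 0.05 with no DEG, a median of −0.20, and 8 of 21 fell in HT29, where *ALDOC* was a DEG upward (0.63 ± 0.11, adjusted p = 1.3e-07). *HMOX1* fell in SW1783 (−0.99 ± 0.06, adjusted p = 1.4e-52), opposite to its sign with the extract, and *MXI1* rose (0.76 ± 0.11, adjusted p = 4.3e-10).

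The genes whose levels ran most like each of these were sought over the 18 libraries of a line by Pearson's r of log2 levels, as a description, since the libraries share the 6 treatment groups and the high dose sets much of each value. In SW1783, *VEGFA* ran most like *GDF15* (0.996), *RAB39B* (0.995) and *MYC* (0.993), *DDIT4* like *DOP1B* (0.992), the amino acid transporter *SLC7A5* (0.991) and the methionine tRNA ligase *MARS1* (0.990), and *STC2* like *SLC39A14* (0.994), *MAP1B* (0.993) and *UAP1* (0.992). *NDRG1* ran most like *SAT1* (0.997), *SRPRA* (0.996) and *NAMPT* (0.994), *ADM* like *ADAM17* (0.986), *ABCA1* (0.984) and *IFIT2* (0.982), *CA9* like *MAP3K14* (0.983), among others, and *ANGPTL4*, with no close match, like *CHI3L1* (0.934), *CCDC71L* (0.911) and *FOXL1* (0.909). In HT29, *VEGFA* ran most like *GPT2* (0.987), *SLC1A4* (0.982) and *SESN2* (0.979), and *DDIT4* like *PSAT1* (0.989), *ASNS* (0.985) and *TRIB3* (0.984), the last 4 of these 6 on the ATF4 and CHOP list. *NDRG1* and *CA9* in HT29 reached 0.931 and 0.936 with their closest genes, *IFITM3* and *COMMD4*. Between the genes themselves, *VEGFA* and *DDIT4* had r of 0.96 in SW1783 and 0.93 in HT29, whereas *VEGFA* and *NDRG1* had 0.94 and −0.42.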

How the data were processed

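Directional mRNA libraries of 36 samples (12 groups of 3) were sequenced. Per the labels and the submitters' processing notes, reads were checked with FastQC 0.11.9, trimmed with Trim Galore 0.6.5, aligned with STAR 2.7.3a and quantified with RSEM 1.3.3. The authors deposited expected counts per gene, estimates that need not be whole (8.84% were not), which RSEM makes by sharing ambiguous reads between gene models. They were rounded before testing. Gene positions and overlaps came from GENCODE v44.

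DESeq2 1.42.0 (R 4.3.3) was fitted to all genes, per line on the 12 libraries of batch B and the 6 of batch A, and on both lines for the interaction. A DEG had a Benjamini-Hochberg adjusted p under 0.05 and a change over 1.5-fold (0.585 on the log2 scale). Printed levels were divided by size factors over all 36 libraries. The scripts were tested on simulated data. The alternatives were edgeR 4.0.16 (quasi-likelihood), TMM or total-count size factors, a minimum of 10 counts in 3 libraries, no fold threshold, pairwise fits, vehicles of both batches, a replicate block and leaving out each library.

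The 7 genes and the lists were chosen with earlier results of these data known. Named list genes were up to 3 DEGs per direction with a mean of 100 or more normalized counts. Lists of HIF subunits, VEGF relatives and paralogues were given gene by gene. Some results that these rules select are not reported here. Intervals of fold changes come from DESeq2 standard errors and hold the spread between libraries, whereas the floor of 3 counts covers counting error only. Vehicle libraries with the same number in both batches differed less (chi-square per degree of freedom 1.46 to 1.64) than other vehicle pairs (2.04 to 17.67), and were kept apart by batch. Whether they share a culture or RNA was not tested.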

Additional observations from a re-analysis of the deposited data

Results flagged for a closer look

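For 2 of the 7 genes the change at the high dose differed between the lines by a test of the difference itself. The log2 change of *NDRG1* was 2.51 larger in SW1783 than in HT29, rising in 3 of 3 SW1783 libraries above all vehicle libraries and overlapping the vehicle in HT29. The log2 change of *ADM* was 1.24 larger, in the same manner. Groups of 3 libraries are too small for a gene-by-gene search for single outlying libraries. High-dose HT29 replicate 2 stood apart as a whole library, as given above. Without it the differences were 2.50 (*NDRG1*) and 1.22 (*ADM*), and both stayed DEGs.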

How the results depend on the processing

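Of 70 gene and comparison values with a fold, the 15 DEG calls kept their direction and their side of the thresholds in every alternative that was run. Of the 55 others, 9 changed sign and 3 were called in some alternative that kept the fold threshold. Without the fold threshold, the number of the 7 genes past an adjusted p under 0.05 was 5 in place of 1 at the medium dose in SW1783, 6 in place of 2 for high against medium dose in SW1783, 3 in place of 0 for wortmannin in SW1783, 2 in place of 0 for wortmannin in HT29, 4 in place of 2 for the difference between lines at the high dose, and 1 in place of 0 for that with wortmannin. In the same order, the shares of all genes past that p were 29.5%, 40.9%, 33.9%, 18.7%, 27.7% and 14.9%. Total-count size factors shifted all log2 fold changes by −0.09 (SW1783) and −0.16 (HT29) at the high dose and by −0.11 at the medium dose in SW1783, and with them *NDRG1* became a DEG with wortmannin in HT29 (1 in place of 0, log2 fold change 0.59), and the upward count went from 1 to 0 for the VEGF family (*VEGFB*) in SW1783 and for glucocorticoid receptor targets in HT29. Leaving out 1 library each gave 0 to 1 genes for wortmannin in SW1783 (*ANGPTL4* 0.65 without batch A vehicle replicate 3) and 2 to 3 for the difference between lines (*CA9* −0.64 without HT29 batch B vehicle replicate 1). Of 144 counts over the gene lists, 142 stayed within 1.5 times. The labels do not say what a replicate number shares. Within a batch, correlations between the deviations of same-numbered libraries ran from −0.48 to 0.36. In batch B 7 of 18 same-numbered pairs in SW1783 and 6 of 18 in HT29 were the closest match of the first library in the other group. With 3 libraries in the other group, a random match has the same number 1 time in 3, so both counts lie at or near that share. In SW1783 the same-numbered matches lay between ACD doses only, with r of 0.12 to 0.19 for low with medium dose, and not with the vehicle. A number may be shared by the dose groups there, but this pattern was seen afterwards and was not tested. The samples were not treated as paired. The replicate block gave 6 genes in SW1783 and 2 in HT29 at the high dose, as without the block. In HT29, *STC2* held 0 counts in all 18 libraries and *ANGPTL4* lay near the floor, so no fold is given for either.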
